A study of Mus musculus with 15 samples.

Results

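The 77 genes described here encode proteins of the mitochondrial ribosome. They were chosen by symbol alone, as every gene of the table whose symbol is Mrpl or Mrps followed by a digit, and they were 77 of 23996 genes: 48 Mrpl genes, named for the large subunit, and 29 Mrps genes, named for the small subunit. Their polyadenylated mRNA was measured by RNA-seq in bone marrow-derived macrophages (BMDM) from C57BL/6 mice, grown in culture with L929 cell supernatant as a source of macrophage colony stimulating factor. There were 15 libraries in 5 groups of 3: WT at rest, after 0.5 h and after 1 h of lipopolysaccharide (LPS, 10 ng/ml), and Nelfb KO at rest and after 0.5 h of LPS. WT mice carried Nelfb+/+ with Lyz2-Cre and Nelfb KO mice carried Nelfb fl/fl with Lyz2-Cre. Both genotypes thus carried the Cre, which Lyz2 drives. The study describes the deletion of Nelfb as specific to myeloid cells. Nelfb encodes a subunit of negative elongation factor (NELF), which holds RNA polymerase II near promoters. The labels state no age.

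The mitochondrial ribosome translates the few mRNAs encoded in mitochondrial DNA, all of which specify subunits of the respiratory chain and ATP synthase. Its own proteins are all encoded in the nucleus, made on cytosolic ribosomes and imported. Many of these proteins descend from bacterial ribosomal proteins, while others were added during the evolution of mitochondria and have no bacterial counterpart. Macrophages rely on both mitochondrial respiration and glycolysis, and strong activation by LPS shifts them towards glycolysis.

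Each value is FPKM, a density of read fragments that takes account of transcript length and library depth, given by the authors as 1 average per gene and group. The spread between the 3 libraries of a group is therefore not known from these values, no SD is given and no test was run, and the depth of each library is unknown here. The authors' own comparison columns were not used. Every difference below is a description of these averages. Differences were taken on the log2(FPKM + 1) scale, which slightly understates the change of genes with low FPKM. A gene was kept when its 5 group values averaged 0.5 FPKM or more. All 77 genes passed, as did 11258 of all 23996, and these 11258 kept genes are the background to which each count is set. A difference of at least 1.4-fold, 0.49 on the log2 scale, was counted.

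The labels fit the genes that check them. Nelfb was at 21.9, 19.7 and 17.5 FPKM in resting WT and in WT after 0.5 h and 1 h of LPS, and at 5.65 and 5.55 FPKM in the resting and LPS-treated Nelfb KO, so some Nelfb mRNA remained in the KO cultures. Tnf, an early LPS response gene, was at 34.5, 302 and 1870 FPKM in the 3 WT groups, and at 28.9 and 553 FPKM in the 2 Nelfb KO groups. The 7 macrophage markers summed to between 3586 and 4068 FPKM in the 5 groups, with 3639 FPKM in resting WT. Of these, 4 were lowest in resting WT, among them Lyz2 (19.7 FPKM there, up to 55.5 FPKM in LPS-treated Nelfb KO) and Mertk (27.97 to 47.1 FPKM), and Cd68 and Fcgr1 were highest there. Lyz2 is also the gene that drives the Cre in both genotypes, and any effect of the Cre on its level was not tested. The T cell markers Cd3e and Cd3g together stayed at or below 0.230 FPKM, and the dendritic cell markers Flt3, Zbtb46 and Ccr7 summed to between 1.17 and 1.75 FPKM, most of it Ccr7. The neutrophil gene S100a8 lay between 72.5 and 133 FPKM, and 3 fibroblast genes summed to 8.43 FPKM in resting WT and between 9.21 and 10.8 FPKM elsewhere. The part of these differences in the results below was not tested. In bulk RNA, fewer cells of a type and less RNA per cell cannot be told apart.

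Resting WT stood apart from the other 4 groups over the whole table. Genes with short transcripts were higher there than in the other 4 groups, and genes with long transcripts were lower. Over the kept genes, resting WT exceeded the mean of the other 4 groups by a median of 0.34 in the decile of genes with the shortest transcripts, and differed from it by -0.19 in the decile with the longest. Because mitochondrial ribosomal proteins are small and their transcripts short, each difference from resting WT below is given with this trend, and the differences among the other 4 groups are given separately.

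Upstream sequences are shown for a few genes that differ in this pattern, so that the promoters of genes high in resting WT can be read beside those of genes that are not. They are the bases just before the RefSeq transcription start, on the strand of the gene, in build GRCm38.p6. Capitals mark matches, on either strand, to short motifs known from promoters of nuclear genes for mitochondrial proteins: GCATGCGC (the core of the site of NRF1, nuclear respiratory factor), CCGGAAG (ETS family) and AAGATGG (YY1). Mrpl28 and Mrpl12, the members with the largest elevation in resting WT, have no such match in the 120 bases at chr17:26123383-26123502 (plus strand) and chr11:120484517-120484636 (plus strand).
Mrpl28: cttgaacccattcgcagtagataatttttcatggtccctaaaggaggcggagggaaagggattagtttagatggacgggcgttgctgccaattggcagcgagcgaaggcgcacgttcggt
Mrpl12: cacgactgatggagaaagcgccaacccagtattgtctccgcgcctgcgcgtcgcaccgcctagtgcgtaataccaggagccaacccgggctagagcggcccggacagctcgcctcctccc
Mrpl46 and Mrps11 start in opposite directions from the same 41 bases, chr7:78783090-78783130, shown on the strand of Mrps11. Both were higher in resting WT, by 0.60 and 0.52. The pair was chosen after its values were seen. Its 41 bases hold no match, while the longer promoter of Mrps11, counted below, holds a YY1 match.
Mrps11: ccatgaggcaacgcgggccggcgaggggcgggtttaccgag
For Mrpl52, with an ETS and a YY1 match, and Mrpl34, with an ETS match, the bases are chr14:54426789-54426908 (plus strand) and chr8:71464806-71464925 (plus strand). In both genes the Nelfb KO groups lay above the LPS-treated WT groups.
Mrpl52: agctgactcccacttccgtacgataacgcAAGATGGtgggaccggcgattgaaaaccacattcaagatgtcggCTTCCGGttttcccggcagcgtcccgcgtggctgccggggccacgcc
Mrpl34: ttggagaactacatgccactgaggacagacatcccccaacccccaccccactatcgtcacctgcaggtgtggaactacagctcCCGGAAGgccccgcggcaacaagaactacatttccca
Mrpl32 and Mrpl50 were not elevated in resting WT. The 120 bases of Mrpl32, chr13:14613038-14613157 (minus strand), hold several copies of the NRF1 core. Its longer promoter, counted below, also holds a YY1 match. The 92 bases of Mrpl50, chr4:49521084-49521175 (minus strand), reach to the start of its divergent neighbour Zfp189 and hold no match.
Mrpl32: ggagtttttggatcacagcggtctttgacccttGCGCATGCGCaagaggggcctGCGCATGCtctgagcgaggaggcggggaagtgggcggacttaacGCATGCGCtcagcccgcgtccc
Mrpl50: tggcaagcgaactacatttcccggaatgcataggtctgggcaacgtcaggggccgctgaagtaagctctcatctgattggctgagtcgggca

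A promoter, from 250 bases before to 50 bases after the start, was found in the RefSeq table for 68 of the 77 genes. The ETS motif was in 24 of the 68 (35.3%), against 20.4% of the 8459 promoters of kept genes and 9.23% of 27025 promoters, 1 a gene. YY1 matches were in 13 (19.1%, against 7.86% and 6.49%) and NRF1 matches in 8 (11.8%, against 5.89% and 2.82%). Any of the 3 motifs was in 36 of 68 promoters (52.9%, against 30.7% and 17.1%). The median elevation in resting WT was 0.45 for the 24 genes with an ETS match and 0.33 for the 44 without, 0.46 for the 13 with a YY1 match and 0.34 for the 55 without, and 0.19 for the 8 with an NRF1 match and 0.35 for the 60 without. Over the kept genes the medians with and without a match were 0.05 and 0.00 for ETS, 0.04 and 0.01 for YY1, and 0.02 and 0.01 for NRF1. A match is a run of letters, not a bound site.

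Summed over the 77 genes, mitochondrial ribosomal protein mRNAs were highest in resting WT and lower in the other 4 groups, lowest in WT after 1 h of LPS. The 77 genes summed to 3055 FPKM in resting WT, 0.497% of the FPKM of all genes. In WT after 0.5 h and 1 h of LPS they summed to 2107 FPKM (0.412%) and 2048 FPKM (0.360%), and in Nelfb KO at rest and after 0.5 h of LPS to 2192 FPKM (0.416%) and 2260 FPKM (0.423%). Resting Nelfb KO, which had no LPS, thus lay with the LPS-treated groups and not with resting WT.

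Gene by gene, the elevation of resting WT over the mean of the other 4 groups had a median of 0.36 (1.28-fold), against 0.01 over all kept genes. It was above 0 in 75 of 77 genes, against 51.8% of the kept genes, and ranged from -0.07 for Mrpl39 to 0.91 for Mrpl28. Of the 77, 26 (33.8%) were at least 1.4-fold higher in resting WT, against 7.65% of the kept genes. None was 1.4-fold lower, against 2.78% of the kept genes. Resting WT was the highest of the 5 groups for 68 genes (88.3%), against 35.6% of the kept genes. For 55 genes the elevation was larger than the whole range among the other 4 groups (71.4%). The share of the kept genes was 41.7%, which also counts genes where resting WT was lower by more than that range. Scaling to an equal sum of FPKM lowered the count of 68 to 45, against 15.99% of the kept genes. It lowered that of 55 to 33, for which no share of the kept genes was calculated. Removing the trends over transcript length and GC content, given below, lowered the 68 to 44, against 27.4% of the kept genes.

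**Figure D1:**
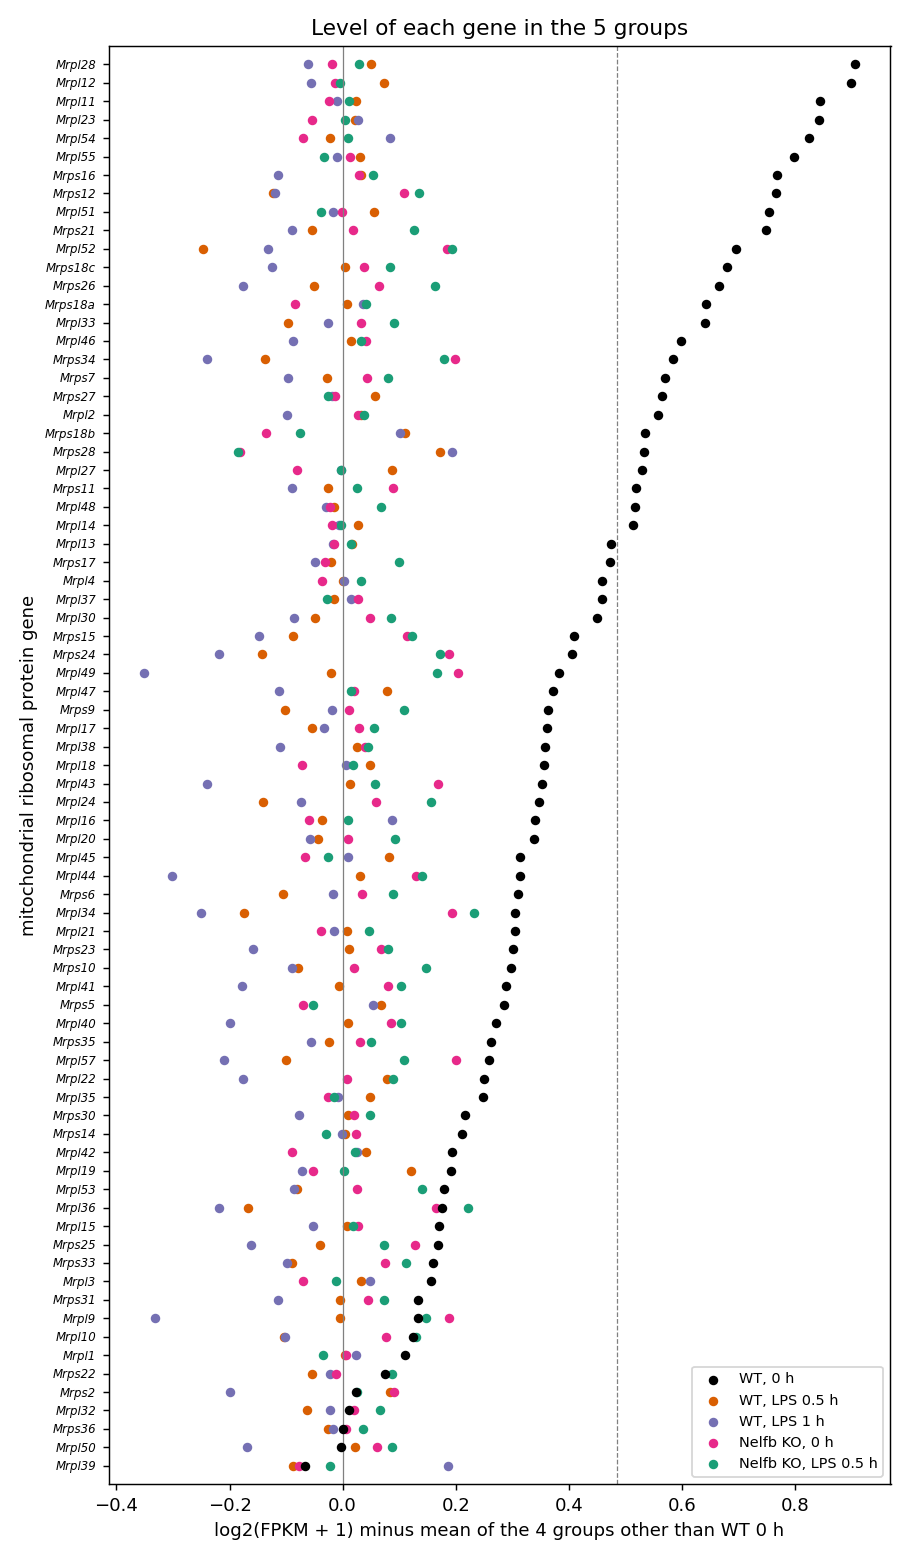
Each line is 1 of the 77 genes, ordered by elevation in resting WT, and each point is the average of 1 group, as log2(FPKM + 1) minus the mean of the 4 groups other than resting WT; the dashed line marks 1.4-fold. The black points (resting WT) run from -0.07 to 0.91, while the other 4 groups stay within 0.56 of each other in every gene.

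The plot of each gene in the 5 groups shows that resting WT leaves the cluster of the other 4 groups gradually, from Mrpl39 upward, without a gap that would divide the genes into kinds. Just past and just short of 1.4-fold lay Mrpl14, at 1.43-fold, and Mrpl13, at 1.39-fold.

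Large subunit genes led the order. Mrpl28 (chr17:26123503-26126613 in mm10), a counterpart of a bacterial large subunit protein, was at 71.5 FPKM in resting WT, 37.2 in resting Nelfb KO, 39.1 and 36.1 in WT after 0.5 h and 1 h of LPS, and 38.5 in Nelfb KO after LPS. Mrpl12 (chr11:120484669-120488754), whose protein forms the stalk that recruits translation factors and also binds the mitochondrial RNA polymerase, was at 83.9 FPKM in resting WT and at 44.1, 46.9, 42.8 and 44.4 FPKM in the same order. In both genes the other 4 groups lay close together, within 0.11 and 0.13 on the log2 scale, and resting WT was 1.87-fold and 1.86-fold above their mean.

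Mrpl11 (chr19:4962306-4966995), at the base of the same stalk, was at 14.2 FPKM in resting WT and between 7.35 and 7.63 FPKM in the other 4 groups. Mrpl23 (chr7:142533117-142540742), which lines the exit of the peptide tunnel, was at 117 FPKM in resting WT and between 62.3 and 66.0 FPKM elsewhere. Mrpl54, which has no bacterial counterpart, was at 82.0 FPKM against 43.6 to 48.6 FPKM, and Mrpl55 at 25.6 against 13.9 to 14.6 FPKM. In these 4 genes the elevation was between 0.80 and 0.84, and the range among the other 4 groups was between 0.05 and 0.15.

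Among small subunit genes, Mrps16 and Mrps12 had the largest elevation, 0.77 each. Mrps16, which causes a combined respiratory chain deficiency in humans when mutated, was at 81.1 FPKM in resting WT and between 43.48 and 48.98 FPKM elsewhere. Mrps12 (chr7:28739641-28741781), part of the decoding centre, was at 45.9 FPKM in resting WT, 28.7 and 29.3 in the 2 Nelfb KO groups, and 24.3 and 24.4 in the 2 LPS-treated WT groups. Here the Nelfb KO groups fell between resting WT and LPS-treated WT.

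The most abundant member, Mrps21, counterpart of a bacterial small subunit protein, was at 194 FPKM in resting WT and between 108 and 126 FPKM elsewhere. Mrpl33, a small zinc-ribbon type protein of the large subunit, was at 136 FPKM against 81.5 to 92.9 FPKM, and Mrpl20, which binds the large rRNA, at 96.7 FPKM against 73.3 to 81.4 FPKM. The order of the members by level was nearly the same in every group: across the 77 genes, Spearman's rho with resting WT lay between 0.97 and 0.98, as a description across genes that share libraries and transcript lengths.

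The 3 paralogues Mrps18a, Mrps18b and Mrps18c, of which the product of the first sits in the large subunit in humans, were all higher in resting WT. Mrps18a was at 63.1 FPKM there and between 37.7 and 41.3 elsewhere. Mrps18c was at 115 FPKM and between 65.6 and 76.0 elsewhere. Mrps18b was at 41.6 FPKM in resting WT, 25.8 and 26.9 in the 2 Nelfb KO groups and 30.7 and 30.5 in the LPS-treated WT groups, so that its 4 lower groups split by genotype. The elevations of the paralogues were 0.64, 0.53 and 0.68.

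A few members were level across the groups. Mrps36 (chr13:100735940-100744659), which later work assigns to the alpha-ketoglutarate dehydrogenase complex and not to the ribosome, was at 33.1 FPKM in resting WT and between 32.5 and 33.9 FPKM elsewhere, an elevation of 0.00. Mrpl32, cleaved by the m-AAA protease on import, was at 24.7 FPKM against 23.4 to 25.7 FPKM. Mrpl50, a large subunit protein without bacterial counterpart, was at 12.03 FPKM against 10.6 to 12.9 FPKM.

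Mrps2 and Mrps22, of which the first has a bacterial counterpart and the second does not, were at 13.9 and 8.30 FPKM in resting WT, with elevations of 0.02 and 0.08. Mrpl39 (chr16:84717580-84735302), a protein related to threonyl-tRNA synthetase, was the only member highest in WT after 1 h of LPS, at 15.1 FPKM against 12.3 to 12.9 FPKM in the other 4 groups. Within 1.1-fold of the mean of the other 4 groups, in either direction, lay 10 of the 77 genes, a count for which no share of the kept genes was calculated.

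Genes of both subunits were higher in resting WT. The elevation had a median of 0.35 in the 48 Mrpl genes, of which 14 (29.2%) passed 1.4-fold, and of 0.41 in the 29 Mrps genes, of which 12 (41.4%) did, against 7.65% of the kept genes. The 47 genes assigned to bacterial families by the number in their symbol had a median of 0.37 with 17 past 1.4-fold. The other 29, with Mrps36 left out, had a median of 0.31 with 9 past it. This division was made after the values were seen and by number alone, so single genes may be misplaced. All 47 of the first kind and 27 of the 29 of the second were above 0, against 51.8% of the kept genes.

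In each single comparison with resting WT the members were lower, and these 3 comparisons share resting WT. Resting Nelfb KO against resting WT had a median of -0.33 (-0.02 over the kept genes), with 72 of 77 members below 0. Of the kept genes, 46.6% were above 0. The share of members at least 1.4-fold lower was 35.1% (27 genes), against 9.98% of the kept genes, and none was higher, against 1.63%. WT after 0.5 h of LPS had a median of -0.38 (0.00 over the kept genes), with 28 members 1.4-fold lower, 36.4% against 7.03%, and none higher, against 1.09%. WT after 1 h of LPS had a median of -0.46 (-0.02 over the kept genes), with 33 members lower, 42.9% against 10.3%, and none higher, against 6.26%. Whether the 3 libraries of resting WT agree in this was not tested, since their single values were not used.

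Transcript length moved with the elevation. The members' longest protein-coding transcripts had a median of 1316 nt, from 463 to 7300 nt, against 2989 nt for the kept genes. Across the 77 genes, Spearman's rho of elevation with length was -0.30, and with the GC content of the transcript 0.50; across 11177 kept genes it was -0.52 and 0.45. These are descriptions across genes measured in the same libraries. Of the 39 members with the shorter transcripts, 19 passed 1.4-fold, and of the 38 with the longer ones, 7 did. The share of kept genes past 1.4-fold also fell with length. It was 34.8% in the decile with the shortest transcripts, 17.4% in the next and 0.358% in the longest.

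**Figure D2:**
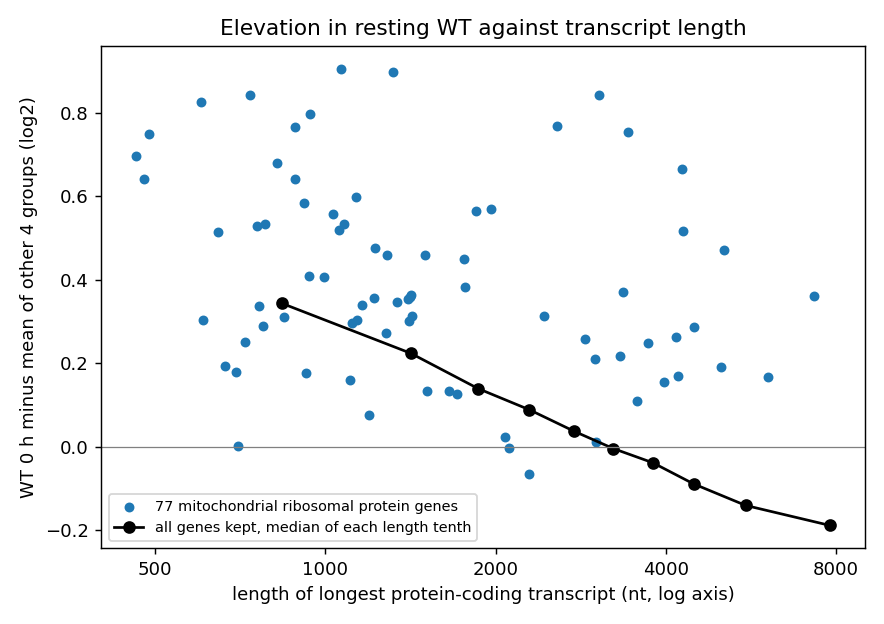
Points are the 77 genes, with the length of the longest protein-coding transcript on a log axis and the elevation in resting WT (log2) on the vertical axis; the line joins the medians of the kept genes in deciles of transcript length. The line runs from 0.34 to -0.19, and 58 of the 77 points lie above the median of their own decile.

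Set against genes of the same length, the members' median was above that of the kept genes in 9 of 10 deciles of length. In the decile of genes with the shortest transcripts, up to 1161 nt, the 32 members had a median elevation of 0.52 and the kept genes one of 0.34, and 20 of the 32 lay above it. In the next decile, 15 members had a median of 0.35 against 0.22, and 13 lay above. The exception was the decile from 2071 to 2539 nt, with a median of 0.01 for its 4 members, among them Mrps2, Mrpl50 and Mrpl39, against 0.09. With the trend over length removed from every group, the members' median was 0.20, 58 of 77 were above 0, and 9 passed 1.4-fold (2.98% of the kept genes did). With the trends over both length and GC content removed, a step added after the data were seen, the median was 0.13, 55 were above 0 (49.2% of the kept genes were) and 8 passed 1.4-fold (2.21% of the kept genes did). Mrpl11, with a transcript of 3045 nt, kept an elevation of 0.82 after the trend over length was removed, Mrpl28 one of 0.60 and Mrpl12 one of 0.64, while Mrpl52, with 463 nt, went from 0.70 to 0.25. For several members the direction turned: Mrpl34 went from 0.30 to -0.10, Mrpl36 from 0.18 to -0.16 and Mrpl20 from 0.34 to -0.03, and Mrps36, with a transcript of 701 nt, from 0.00 to -0.38. What part length, GC content or RNA quality had in the elevation was not tested.

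Other genes of mitochondrial translation were compared by lists. One list held 7 genes for proteins of or bound to the mitoribosome whose symbols the rule does not catch. Of these 7, 6 were higher in resting WT (51.8% of the kept genes were). Past 1.4-fold were 4 (7.65% of the kept genes), and the median was 0.60. Gadd45gip1, a protein near the tunnel exit, was at 16.2 FPKM in resting WT and between 7.21 and 7.60 FPKM elsewhere. Aurkaip1, a small subunit protein, was at 80.1 FPKM against 42.5 to 47.8 FPKM, and Ict1, a peptidyl-tRNA hydrolase built into the large subunit and now named Mrpl58, at 28.9 against 18.1 to 19.5 FPKM. Ptcd3, a pentatricopeptide repeat protein of the small subunit, was at 9.45 FPKM in resting WT and between 9.38 and 10.4 FPKM elsewhere.

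Genes for proteins that serve the ribosome had lower medians than the 77 members. The 14 translation factors had a median of 0.09 with 3 past 1.4-fold, the 26 assembly factors 0.22 with 3, and the 17 mitochondrial aminoacyl-tRNA synthetases 0.15 with 1, where 7.65% of the kept genes passed. The 78 nuclear-encoded respiratory chain subunits had a median of 0.45 with 32 past 1.4-fold, and the 83 cytosolic ribosomal proteins 0.52 with 48. These last lists have short transcripts, with medians of 870 and 937 nt, against 2662, 2138 and 3336 nt for the factors and synthetases. After the trend over length was removed, the medians were 0.10 and 0.19 for respiratory chain and cytosolic ribosome, 0.20 for the 77 members and 0.43 for the 7 proteins outside the rule. They were 0.02 for the translation factors, 0.06 for the assembly factors and 0.15 for the synthetases, which then lay above the respiratory chain. mRNAs encoded in mitochondrial DNA were not analysed here.

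**Figure D3:**
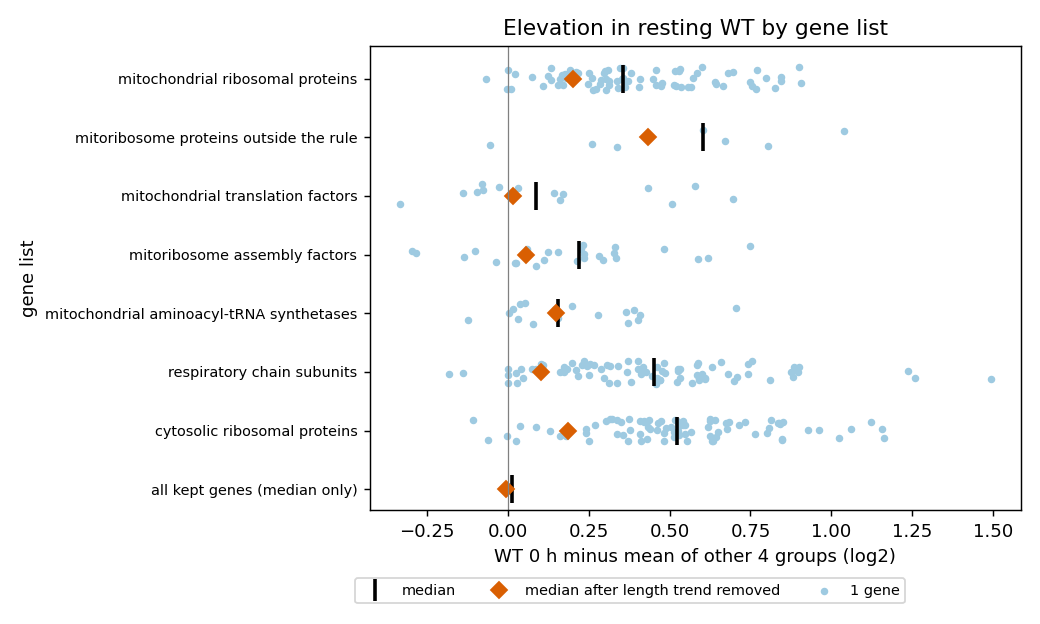
Elevation in resting WT (log2) by gene list, with 1 point a gene, the median as a vertical bar and the median after removal of the length trend as a diamond. The bar of the mitochondrial ribosomal proteins is at 0.36 and its diamond at 0.20; those of the cytosolic ribosomal proteins are at 0.52 and 0.19.

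Genes transcribed in the opposite direction from the same region did not share the full elevation. Another gene started within 500 bases of 21 members on the other strand. For 19 of these members the neighbour was not itself one of the 77, and there the neighbours' median elevation was 0.17 and that of the members 0.46, with the member higher in 16 of 19 pairs. Mrps18c was higher in resting WT by 0.68 and its neighbour Helq, a DNA helicase gene, by -0.12. Mrps12 was higher by 0.77 and Sars2, which encodes the mitochondrial seryl-tRNA synthetase, by 0.28. The reverse held for Mrpl49, at 0.38, and Fau, which encodes a cytosolic ribosomal protein, at 0.89. In 12 of the 19 pairs the neighbour had the longer transcript, so this comparison is not free of the trend over length.

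Among the 4 groups other than resting WT the members differed little. The range from the lowest to the highest of these 4 groups had a median of 0.17 (1.13-fold), against 0.20 for the kept genes. After scaling to an equal sum of FPKM the order turned, with 0.26 for the members and 0.24 for the kept genes. Only 2 of 77 members, Mrpl49 and Mrpl9, had a range of 1.4-fold or more (2.6%, against 14.1% of the kept genes). A range under 1.1-fold was seen in 28 members, for which no share of the kept genes was calculated.

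In none of the 3 comparisons among these groups that change only LPS time or genotype did a member pass 1.4-fold. Nelfb KO against WT, both after 0.5 h of LPS, had a median of 0.06 (0.01 over the kept genes). In it 53 of 77 members were above 0, against 53.9% of the kept genes, with a range from -0.36 for Mrps28 to 0.44 for Mrpl52. Its median was 0.01 with the trend over length removed. The kept genes past 1.4-fold were 2.03% higher and 3.24% lower. LPS for 0.5 h against rest in Nelfb KO had a median of 0.03 (0.01), and turned to -0.0037 after median scaling of the groups, with a range from -0.11 to 0.13, where 1.32% of the kept genes were 1.4-fold higher and 0.266% lower. In WT, 1 h against 0.5 h of LPS had a median of -0.04 (0.01), with a range from -0.33 for Mrpl44 to 0.27 for Mrpl39. Of the 77 members 56 were below 0, while 52.2% of the kept genes were above 0. Among kept genes, 4.17% passed 1.4-fold upward and 2% downward.

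A smaller pattern set Nelfb KO against LPS-treated WT. In 42 of 77 members (54.5%) both Nelfb KO groups, with and without LPS, lay above both LPS-treated WT groups, against 33.8% of the kept genes. In 8 members (10.4%) both lay below, against 32.7%, and in 27 the groups interleaved. The median difference between the means of these pairs of groups was 0.08, against 0.00 over the kept genes. With the trend over length removed from the values, 34 members (44.2%, against 33.0% of the kept genes) had both Nelfb KO groups above and 20 (26.0%, against 33.8%) had both below.

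The gap between the lower Nelfb KO and the higher LPS-treated WT value was at least 0.3 in 5 members (6.49%, against 2.14% of the kept genes). Mrpl34 (chr8:71464926-71465753), a counterpart of a bacterial large subunit protein, was at 39.5 and 40.6 FPKM in resting and LPS-treated Nelfb KO and at 30.4 and 28.7 FPKM in WT after 0.5 h and 1 h of LPS, with 42.7 FPKM in resting WT. Mrpl36 (chr13:73331009-73332178), a very small protein of the large subunit, was at 44.9 and 46.7 FPKM in Nelfb KO, 35.4 and 34.2 FPKM in LPS-treated WT and 45.2 FPKM in resting WT. For these genes resting Nelfb KO lay beside resting WT, unlike Mrpl28 or Mrpl12.

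Mrpl52, a protein without bacterial counterpart, was at 121 and 122 FPKM in Nelfb KO, 89.6 and 97.2 FPKM in LPS-treated WT and 173 FPKM in resting WT, so that it showed both differences. The other members of the 5 were chosen after their values were seen. Mrps24, of the mRNA entry side, was at 24.7 and 24.4 FPKM in Nelfb KO, 19.4 and 18.4 FPKM in LPS-treated WT and 28.9 FPKM in resting WT. Mrps34, without bacterial counterpart, was at 24.9 and 24.5 FPKM, 19.5 and 18.1 FPKM, and 32.8 FPKM in the same groups.

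Mrps28 was the clearest member in the opposite direction, and it too was chosen after its values were seen. It belongs to the family of a bacterial small subunit protein that binds mRNA. It was at 20.8 and 20.7 FPKM in Nelfb KO, 26.8 and 27.2 FPKM in LPS-treated WT and 34.7 FPKM in resting WT. The Nelfb KO groups were below every WT group, as they were for Mrps18b. Mrps5, of the small subunit, had the next largest gap of this sign, 0.11.

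**Figure D4:**
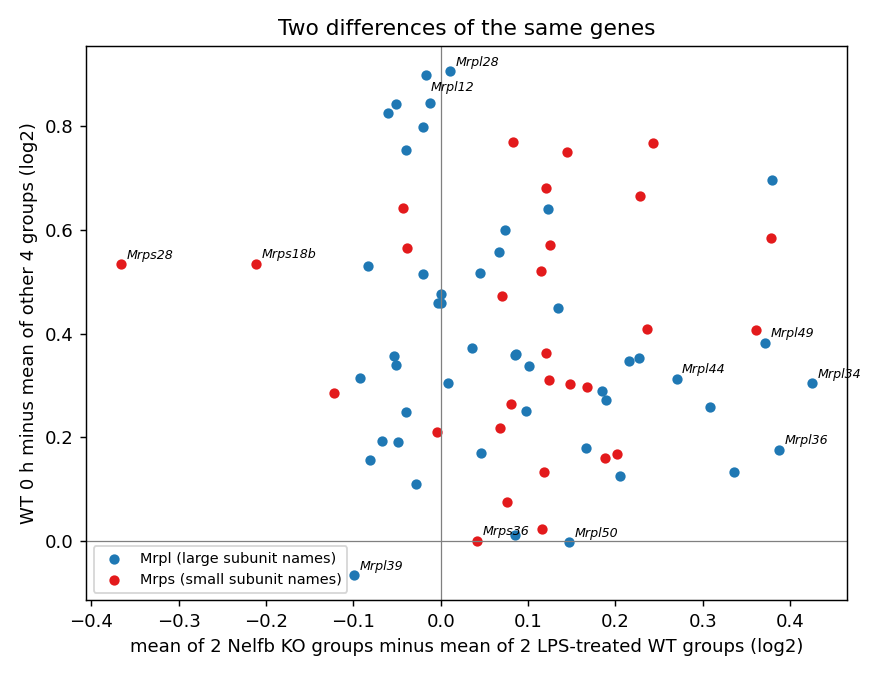
Each point is 1 of the 77 genes, with the mean of both Nelfb KO groups minus the mean of both LPS-treated WT groups (log2) on the horizontal axis and the elevation in resting WT (log2) on the vertical axis. Most points lie to the right of 0 and above 0, Mrps28 and Mrps18b lie far to the left, and the genes with the largest elevation, Mrpl28 and Mrpl12, lie near 0 on the horizontal axis.

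In the plot of both differences, Mrpl28 and Mrpl12 differed between Nelfb KO and LPS-treated WT by 0.01 and -0.02, while Mrpl34 and Mrpl36 differed by 0.43 and 0.39, with elevations of 0.30 and 0.18. Mrpl52 was far out on both axes, at 0.38 and 0.70.

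After 1 h of LPS, WT had the lowest value of all 5 groups in 42 members (54.5%), against 26.8% of the kept genes. Resting WT was the lowest group in 0 members, so this share is not separate from the elevation of resting WT. In 6 members (7.79%) it lay at least 0.25 below WT after 0.5 h, a share near the 7.26% of the kept genes. Mrpl44 (chr1:79776018-79781445), an RNase III-like protein, was at 13.7 FPKM after 1 h and 17.5 FPKM after 0.5 h, with 21.5 FPKM in resting WT and 18.8 and 19.0 FPKM in Nelfb KO. Mrpl49, another large subunit protein, was at 8.23 FPKM after 1 h and 10.6 FPKM after 0.5 h, with 14.3 FPKM in resting WT and 12.6 and 12.2 FPKM in Nelfb KO. Its locus overlaps Syvn1 in the table, so reads could be shared between them.

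Mrpl9 (chr3:94443336-94448708), whose bacterial counterpart reaches out from the base of the large subunit, was at 13.1 FPKM after 1 h and 16.7 FPKM after 0.5 h. It was at 18.4 FPKM in resting WT and 19.2 and 18.6 FPKM in Nelfb KO. Mrps2 showed the same with smaller differences, at 11.8 FPKM after 1 h of LPS against 13.9 to 14.6 FPKM in the other 4 groups. Mrpl22 and Mrpl43, named after their values were seen, completed the 6, at -0.25 each. No Nelfb KO value after 1 h of LPS was used here, so this difference between LPS times was seen in WT alone.

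**Figure D5:**
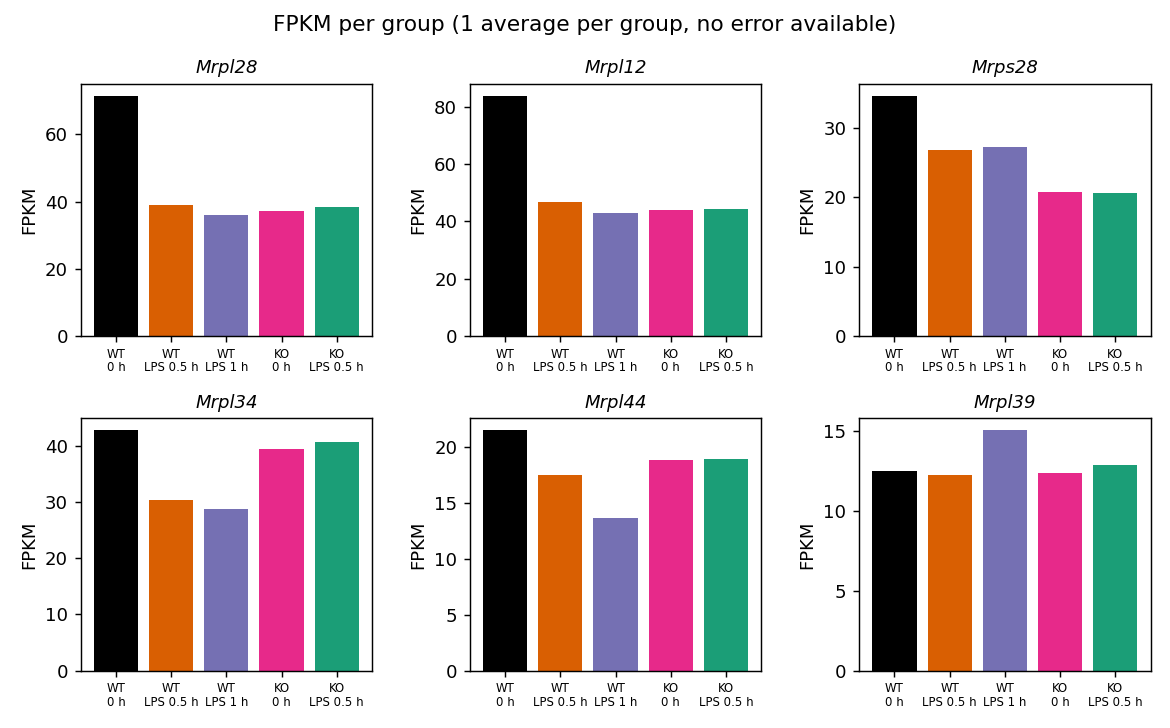
FPKM in the 5 groups, 1 bar a group, on axes that start at 0, for 6 genes; bars are averages with no error. Mrpl28 and Mrpl12 are high in resting WT only, Mrps28 is lowest and Mrpl34 high in both Nelfb KO groups, Mrpl44 is lowest in WT after 1 h of LPS at 13.7 FPKM, and Mrpl39 is highest there at 15.1 FPKM.

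The bars of these 6 genes give the separate patterns side by side. Resting WT was the highest group in 68 members, while WT after 1 h of LPS was the lowest in 42, and among the 4 groups other than resting WT the differences were under 1.4-fold in all but Mrpl49 and Mrpl9.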

How the data were processed

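RNA-seq values of 15 BMDM libraries in 5 groups of 3 were used, with groups taken from the sample titles. According to the submitters' processing notes and the study's methods, CASAVA 1.8 was used, paired-end reads were aligned to mm10 with TopHat2 2.1.0, keeping uniquely mapped reads, and Cuffdiff of Cufflinks 2.2.1 gave the FPKM values, which the authors deposited as 1 average per gene and group. Depth per library was not used, so counting error is unknown. The table also holds 12 columns of the authors' own comparisons (fold changes, p and q values) and 3 repeated group columns, none of which were used; 1 empty line was dropped.

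Symbols matching Mrpl or Mrps and a digit were taken. Log2 values used a pseudocount of 1 FPKM, and the filter was a mean FPKM of 0.5. The elevation of resting WT is its log2 value minus the mean of the other 4 groups. No test was run. The members and lists were chosen with earlier results of these data known. Genes named are the 8 with the largest and 6 with the smallest elevation, the 6 with the largest range among the other groups, the 6 with the highest mean FPKM and a few chosen by function; any other is said to be chosen after its values were seen, unless it stands as a member of a list, a neighbour, or a gene beside a threshold. Length and GC content were those of the longest protein-coding transcript in GENCODE M21, found for 99.3% of kept genes. Trends were removed by lowess (fraction 0.3) in each group. Promoters came from RefSeq, GRCm38.p6. The calculations were tested on simulated data. Python 3.11.15, numpy 2.4.6, pandas 2.3.3, scipy 1.17.1, statsmodels 0.14.6 and matplotlib 3.10.9 were used.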

Additional observations from a re-analysis of the deposited data

How the results depend on the processing

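No paired analysis was possible because the columns are group averages that carry no replicate number, and for the same reason no replicate could be left out. The second copy of repeated group columns was not run. A value was taken as moved when it differed by 0.05 or more on the log2 scale, or by more than 1.5 times for a count. The median elevation kept its direction under every alternative run, while LPS against rest in Nelfb KO, at 0.03, came to -0.0037 after median scaling and -0.0030 after quantile normalization. The small elevations of Mrps36, Mrpl32, Mrps2, Mrps22, Mrpl9 and Mrpl36 turned negative with equal sums or without the length trend, as did those of Mrpl34 and Mrpl20 without the length trend. For the rest, median scaling, a pseudocount of 0.1 FPKM, a filter at 1 FPKM, dropping the filter and leaving out Mrps36 and overlapping loci moved none of the medians and counts. Median elevation was 0.16 after scaling to an equal sum of FPKM, which itself moved the median of all kept genes to -0.15; it was 0.20 with the length trend removed and 0.13 with length and GC trends removed. It was 0.25 over the highest and 0.48 over the lowest of the other 4 groups, both added after seeing the data, as were the joint trends. Members past 1.4-fold numbered 11 with equal sums, 9 without the length trend and 8 without both trends. In the same order, 3.01%, 2.98% and 2.21% of the kept genes passed. Past 1.2-fold there were 54 members, against 20.2% of the kept genes, and past the inverse of 0.6 there were 10, against 2.203%. Resting WT was the highest group in 45, 49 and 44 members with equal sums, without the length trend and without both, against 68. For the kept genes these shares were 15.99%, 29.7% and 27.4%, against 35.6%. The range median was 0.26 with equal sums, above the 0.24 of the kept genes. Resting Nelfb KO against resting WT gave -0.28 after quantile normalization, -0.13 with equal sums, -0.16 without the length trend and -0.14 without both. WT at 0.5 h against rest gave -0.12, -0.18 and -0.16 with equal sums and without 1 or both trends, and WT at 1 h gave -0.36, -0.21 and -0.17. WT at 1 h against 0.5 h gave -0.11 after quantile normalization and -0.19 with equal sums, where Nelfb KO against WT at 0.5 h gave 0.0004. The cause of the elevation was not tested.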

Other observations

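Some genes that serve the mitochondrial ribosome, chosen here after their values were seen, were lower in WT after 1 h of LPS than in every other group. Mrm1, which methylates mitochondrial large rRNA, was at 2.08 FPKM there, against 4.21 FPKM in WT after 0.5 h of LPS, 4.61 FPKM in resting WT, and 4.79 and 4.70 FPKM in resting and LPS-treated Nelfb KO. Ftsj2, an rRNA methyltransferase gene, was at 2.096 FPKM there and between 3.32 and 5.19 FPKM elsewhere. Pars2, the mitochondrial prolyl-tRNA synthetase gene, was at 0.844 FPKM against 1.89 to 2.46 FPKM. Among the 26 assembly factors, 1 gene was at least 1.4-fold lower at 1 h than at 0.5 h, as was 1 of the 17 synthetases and none of the 77 mitochondrial ribosomal protein genes, where 2% of the kept genes were. All of these levels are low, and no replicate value stands beside them.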
